A study of Mus musculus with 8 samples.

Results

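The Wnt ligands and their receptors in the mouse comprise 34 genes here, namely 19 Wnt ligand genes, the 10 Frizzled receptor genes *Fzd1* to *Fzd10*, the LRP co-receptor genes *Lrp5* and *Lrp6*, and the receptor tyrosine kinase-like genes *Ror1*, *Ror2* and *Ryk*. They were picked by gene symbol, with no measured value in the rule, among the 48709 genes counted in P1 cortex, and all 34 were found. Of these, 26 passed the filter on low counts, 11 of 19 ligands and 15 of 15 receptors and co-receptors. The comparison addressed which of these genes differ when the BAF chromatin remodeler is lost from cortical neurons, since the study is concerned with WNT signaling in such mutants.

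RNA was sequenced from whole cortical tissue of 4 control and 4 dcKO_Nex-Cre samples at postnatal day 1, with 1 library each. In the dcKO_Nex-Cre cortex the floxed genes *Smarcc1* and *Smarcc2*, which encode the BAF subunits BAF155 and BAF170, are deleted by Nex-Cre, a Cre inserted at *Neurod6* that is active in postmitotic projection neurons. Glia, interneurons, vessels and other cells without a history of Nex-Cre keep both genes, and their RNA is in the same tissue sample. By the study's methods the controls are heterozygous for the floxed alleles (BAF155fl/+, BAF170fl/+) and carry no Cre, and all mice share a C57BL6/J background. The labels give the genotype only as control or mutant, and the Cre line was taken from the study's account of its P1 mutant. Nothing in the labels says that the samples come from separate animals, so p-values measure the spread between these samples, which may be technical.

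Wnt proteins are lipid-modified secreted factors that bind Frizzled receptors. Together with LRP5 or LRP6, a Wnt-bound Frizzled stabilizes beta-catenin, which then acts with TCF/LEF factors on target genes, whereas Ror and Ryk receptors serve branches that do not need beta-catenin and act on cell polarity and axon guidance. In the embryonic forebrain, Wnt ligands of the cortical hem pattern the hippocampus, and *Wnt7a* and *Wnt7b* from neural cells drive the growth of brain vessels and their barrier.

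Total counts ranged from 17958641 to 35191912 per library. *Smarcc1* was at 139 to 164 CPM (counts scaled to a common library size) in the control and at 93.0 to 122 CPM in the dcKO_Nex-Cre cortex, and *Smarcc2* was at 429 to 486 and at 241 to 292 CPM, so that both deleted genes separated the groups in the direction of their labels. *Neurod6* was at 570 to 750 CPM in the control and at 327 to 437 CPM in the mutant. All 9 markers of cortical projection neurons were detected, with a summed level of 1583 to 1862 CPM in the control and 1333 to 1533 CPM in the mutant. The fitted change was below 0 for 7 of them and above 0 for 2, and at an unadjusted p under 0.05, 4 were lower and 0 higher. Of these, *Neurod6* and *Emx1* fell at an adjusted p under 0.05. Without *Neurod6* the sums were 999 to 1112 and 938 to 1122 CPM. Mitochondrial genes took 2.33% to 4.24% of the counts in 6 libraries, 6.87% in control replicate 2 and 6.15% in dcKO_Nex-Cre replicate 4. Markers of choroid plexus, a tissue beside the cortex, summed to between 23.6 and 1351 CPM in the control and between 4.49 and 561 CPM in the mutant. The file names place dcKO_Nex-Cre replicates 3 and 4 in lane 8 and all other libraries in lane 2, so no control was run in lane 8.

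*Wnt7b* and *Wnt7a* dominated the ligand RNA and *Ryk* and *Fzd1* the receptor RNA of the P1 cortex, and the same genes led in both groups. Levels of different genes were compared as RPKM, the CPM per kilobase of merged exons. Averaged over the 8 libraries, *Wnt7b* was at 19.3 RPKM and *Wnt7a*, its closest paralogue, at 9.36 RPKM. Next came *Wnt5a*, a ligand best known for signaling without beta-catenin, at 2.59 RPKM. *Wnt5b*, *Wnt3* and *Wnt4* lay at 1.43, 1.42 and 1.41 RPKM, and their libraries overlapped. The other 5 tested ligands, *Wnt9a*, *Wnt2b*, *Wnt8b*, *Wnt2* and *Wnt3a*, lay between 0.175 and 0.656 RPKM.

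**Figure D1:**
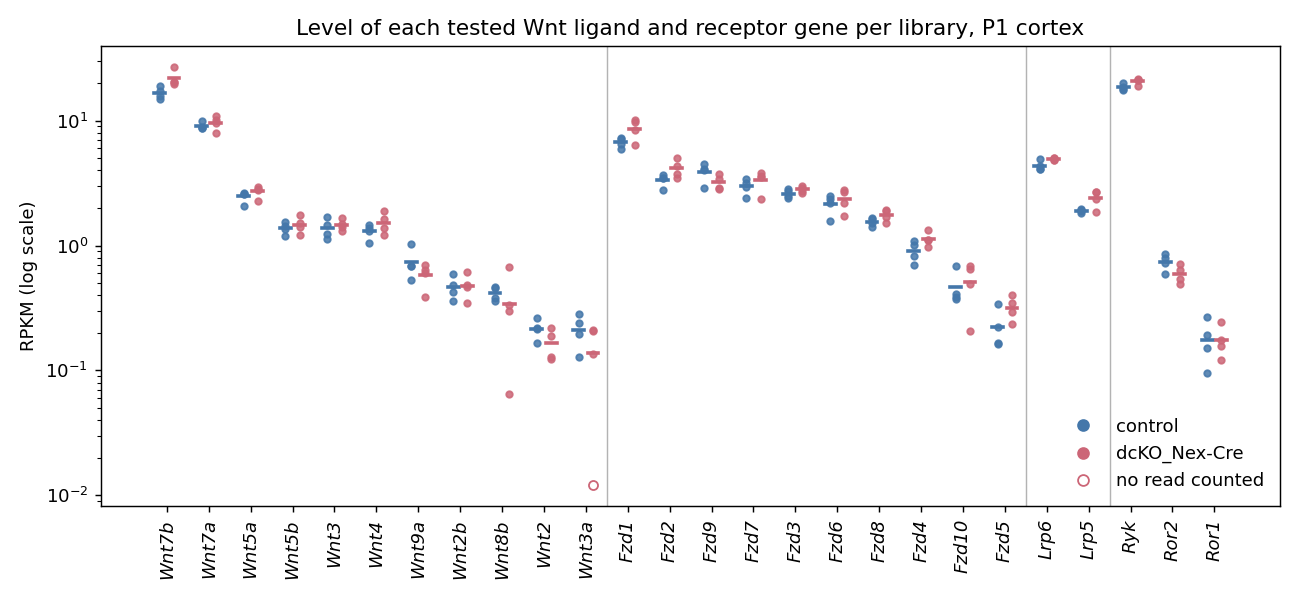
Level of the 26 tested genes in every library, in RPKM on a log scale, ordered by role and by mean. Points are the 4 control (blue) and 4 dcKO_Nex-Cre (red) libraries, short lines are group means, and the open circle at the bottom of the axis marks the library with 0 *Wnt3a* counts, which has no place on a log scale. *Wnt7b* and *Ryk* stand at about the same height, and the groups overlap for every gene except *Wnt7b*.

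As a share of the summed ligand RPKM, *Wnt7b* took 48.2% ± 3.24 (SD, n = 4) in the control and 53.7% ± 2.68 (SD, n = 4) in the dcKO_Nex-Cre cortex. *Wnt7a* took 26.2% ± 2.11 and 23.8% ± 1.32 (SD, n = 4 each). Thus *Wnt7a* and *Wnt7b* together made up most of the ligand RNA in each of the 8 libraries, and the share of *Wnt7b* overlapped between the groups. Among the Frizzled genes the RNA was spread more evenly. *Fzd1* took 27.0% ± 0.809 of the summed Frizzled RPKM in the control and 30.5% ± 1.90 in the mutant (SD, n = 4 each). *Fzd9* took 15.6% ± 1.40 and 11.5% ± 1.31, *Fzd2* 13.5% ± 0.395 and 14.8% ± 1.77, and *Fzd7* 11.99% ± 0.615 and 11.7% ± 0.932 (SD, n = 4 each). The share of *Fzd1* did not overlap between the groups (26.0% to 28.0% in the control and 28.7% to 33.0% in the mutant), nor did that of *Fzd9* (13.6% to 16.9% and 9.96% to 12.9%). These shares of one family add up to a fixed total, so that a larger share of one gene comes with smaller shares of others, and they were not tested.

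**Figure D2:**
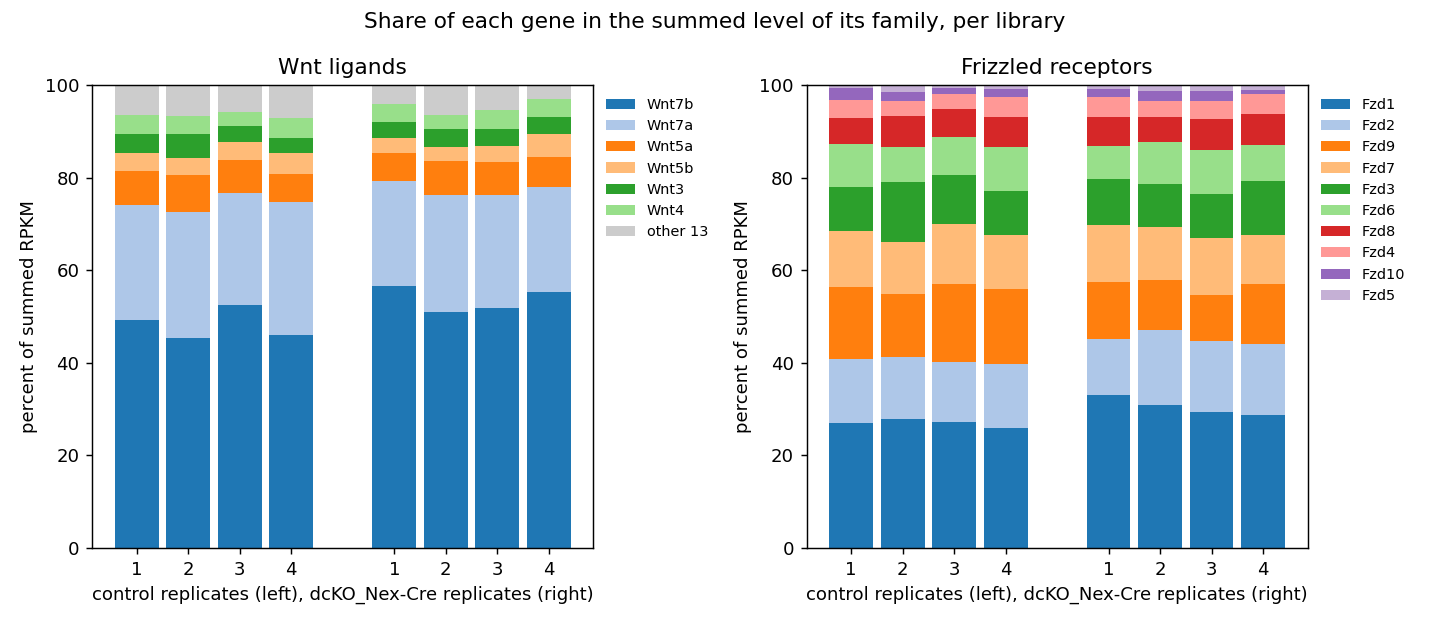
Share of each gene in the summed RPKM of the ligands (left) and of the Frizzled receptors (right), 1 bar per library, as percent. The ligand bars are led by *Wnt7b* (45.3% to 56.6%) and *Wnt7a* (22.6% to 28.7%), and the Frizzled bars by *Fzd1* (26.0% to 33.0%).

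Summed over each role, ligand RNA was at 34.6 ± 1.42 RPKM in the control and 40.6 ± 5.14 RPKM in the dcKO_Nex-Cre cortex (SD, n = 4 each). The summed Frizzled level was 24.8 ± 2.61 and 28.2 ± 4.03 RPKM, that of *Ror1*, *Ror2* and *Ryk* 19.4 ± 1.09 and 21.5 ± 1.25 RPKM, and that of *Lrp5* and *Lrp6* 6.25 ± 0.322 and 7.34 ± 0.462 RPKM (SD, n = 4 each). All 4 sums had a higher mean in the mutant. Each of the 4 sums was lowest in dcKO_Nex-Cre replicate 4 within its group.

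To show the kind of promoter these genes have, the 250 bases before the start site are given for 3 members. *Fzd1* and *Ryk* are the most abundant receptors and *Wnt7a* is the most abundant ligand whose promoter was found in the RefSeq table (GRCm38.p6), which holds 24 of the 34 members. CpG dinucleotides, the sites of DNA methylation, are in capitals. They number 34 in *Wnt7a* (chr6:91411354-91411603, minus strand), 12 in *Fzd1* (chr5:4758217-4758466, minus strand) and 33 in *Ryk* (chr9:102834670-102834919, plus strand).
Wnt7a: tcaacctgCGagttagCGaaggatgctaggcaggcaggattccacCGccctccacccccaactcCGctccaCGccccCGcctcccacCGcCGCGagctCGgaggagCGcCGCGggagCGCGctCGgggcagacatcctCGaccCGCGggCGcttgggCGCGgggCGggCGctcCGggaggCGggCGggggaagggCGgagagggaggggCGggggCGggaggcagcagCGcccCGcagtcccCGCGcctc
Fzd1: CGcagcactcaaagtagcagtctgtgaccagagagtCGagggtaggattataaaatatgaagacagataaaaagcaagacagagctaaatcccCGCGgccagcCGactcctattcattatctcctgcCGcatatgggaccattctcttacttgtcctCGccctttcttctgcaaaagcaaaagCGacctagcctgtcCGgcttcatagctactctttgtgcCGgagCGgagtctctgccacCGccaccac
Ryk: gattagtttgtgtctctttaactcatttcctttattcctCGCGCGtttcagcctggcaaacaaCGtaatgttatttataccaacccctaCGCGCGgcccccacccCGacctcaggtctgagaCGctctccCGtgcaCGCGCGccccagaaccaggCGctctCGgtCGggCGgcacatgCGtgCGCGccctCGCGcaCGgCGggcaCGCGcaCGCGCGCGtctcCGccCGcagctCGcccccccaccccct

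Over the 27 promoters of members in the table, taken from 250 bases before to 50 bases after the start, the median number of CpG dinucleotides was 31, beside 7 over all 32851 promoters. The median GC content was 71.3% beside 52.7%. The letters CTTTGAT, the core that TCF/LEF factors recognise, were searched on both strands. They stood in 2 of the 27 promoters of members (7.41%) and in 3.73% of all promoters. The 2 were 1 promoter of *Wnt11* and 1 of *Wnt5b*, and the other promoters of both genes in the RefSeq table lack the letters. None of the 3 sequences above holds them. These are descriptions of letters in a window, not of binding sites.

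No ligand or receptor gene passed an adjusted p of 0.05 in either direction. This was 0 of 26, beside 0.884% of all 16287 genes tested (0.375% higher and 0.51% lower in the dcKO_Nex-Cre cortex). Before adjustment, 6 of the 26 were higher in the mutant at a p under 0.05 (23.1%, beside 6.59% of all genes) and 0 were lower (beside 7.05%). The 6 genes were the ligand *Wnt7b*, the Frizzled receptors *Fzd1* and *Fzd2*, both LRP co-receptors *Lrp5* and *Lrp6*, and *Ryk*. Their fitted changes were small, between 0.17 and 0.38 on the log2 scale. The test was edgeR's quasi-likelihood test with Benjamini-Hochberg adjustment over all genes tested, and the smallest adjusted p of a member was 0.176. DESeq2, run without the filter, assigned an adjusted p to 26 members and put 0 of them under 0.05 (beside 2.66% of all such genes). It gave 6 of all 34 members as higher at an unadjusted p under 0.05 (beside 3.87%). In whole tissue, a difference in RNA per cell and a difference in the number of cells of a type cannot be told apart.

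Fitted changes were above 0 for 19 of the 26 genes, beside 50.9% of all genes tested. The median log2 fold change was 0.13 over the 26 genes and 0.0043 over all genes tested. Taken library by library, the log2 median of the members had an SD of 0.12 between libraries of a group, about the size of that change. By role, 7 of 11 ligands, 9 of 10 Frizzled receptors, both LRP co-receptors and 1 of 3 Ror and Ryk genes had a fitted change above 0. Only *Wnt7b* had groups that did not overlap, 1 of 26 members, beside 8.0% of all genes. The median of the members was 0.22 within lane 2, 0.20 without dcKO_Nex-Cre replicate 4 and 0.20 without the 2 libraries of highest mitochondrial share. No other alternative moved it by more than 1.5 times.

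**Figure D3:**
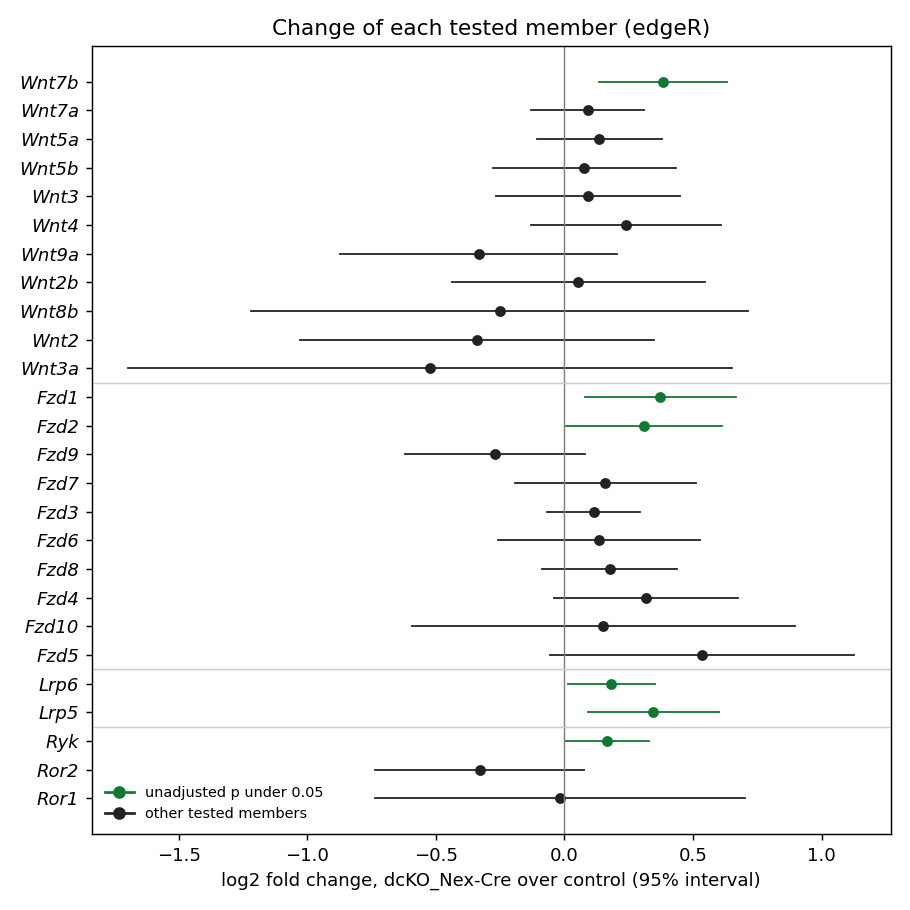
Fitted log2 fold change of the 26 tested genes, dcKO_Nex-Cre over control, with its approximate 95% interval derived from the edgeR test. The 6 genes in green have an unadjusted p under 0.05 and lie between 0.17 and 0.38, and the intervals of all others cross 0.

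*Wnt7b* (ENSMUSG00000022382, chromosome 15 of GRCm38, 85535437 to 85582473, minus strand) was the most abundant ligand. It was at 84.2, 73.0, 93.1 and 77.7 CPM in control replicates 1 to 4 and at 132, 100.1, 99.9 and 95.5 CPM in dcKO_Nex-Cre replicates 1 to 4. Every mutant library was above every control library, with the highest control close below the lowest mutant, and dcKO_Nex-Cre replicate 1 stood apart from the other mutants. The log2 fold change was 0.38 (95% interval 0.13 to 0.63), or 1.30-fold, with an unadjusted p of 0.0063 and an adjusted p of 0.176 from edgeR. Without dcKO_Nex-Cre replicate 4 the adjusted p from edgeR was 0.042, the only one under 0.05 among 17 alternatives, which spanned 0.042 to 0.949. *Wnt7b* shares 324 bases of exon with *AU022754* on the other strand, where reads counted without strand cannot be told apart. *AU022754* had a mean count of 57.6 beside 2307 for *Wnt7b*.

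The paralogue *Wnt7a* (ENSMUSG00000030093, chromosome 6, 91363981 to 91411363, minus strand) was at 27.5, 28.4, 27.8 and 31.4 CPM in the control and at 34.3, 32.2, 30.5 and 25.3 CPM in the mutant. The lowest of the 8 libraries was dcKO_Nex-Cre replicate 4, the 3 highest included dcKO_Nex-Cre replicates 1 and 2, and the groups overlapped. Its log2 fold change was 0.09 (95% interval -0.13 to 0.31, adjusted p = 0.713 from edgeR). *Wnt5a* (ENSMUSG00000021994, chromosome 14, 28504750 to 28527448, plus strand) was at 20.1, 20.6, 20.4 and 16.3 CPM in the control and at 22.2, 23.1, 21.7 and 17.9 CPM in the mutant. For this gene 3 mutant libraries lay above all controls, while dcKO_Nex-Cre replicate 4 lay among them. Its log2 fold change was 0.14 (95% interval -0.11 to 0.38, adjusted p = 0.601 from edgeR).

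The other tested ligands did not pass the threshold either. *Wnt4* had a log2 fold change of 0.24 (95% interval -0.13 to 0.61), and *Wnt3*, *Wnt5b* and *Wnt2b* lay between 0.05 and 0.09. Fitted values below 0 were found for *Wnt9a* (-0.33), *Wnt2* (-0.34), *Wnt8b* (-0.25) and *Wnt3a* (-0.52), which are among the 5 ligands of lowest level. The intervals of *Wnt2*, *Wnt8b* and *Wnt3a* are wide and reach past a 2-fold decrease.

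*Wnt3a* and *Wnt8b*, ligands of the cortical hem and the neighbouring medial pallium, had fitted values that depended on single libraries. *Wnt3a* (chromosome 11, 59248033 to 59290752, minus strand) had 17, 12, 13 and 8 counts in the control and 13, 15, 14 and 0 counts in the mutant, and *Wnt8b* (chromosome 19, 44493472 to 44514273, plus strand) had 29, 23, 38 and 37 counts in the control and 36, 61, 28 and 4 counts in the mutant. For both genes dcKO_Nex-Cre replicate 4 was far below the other 7 libraries. In that library 0 counts allow a level of up to 0.168 CPM, the equivalent of 3 counts, beside 0.352 to 0.778 CPM for *Wnt3a* in the control. *Lmx1a*, a marker of the cortical hem, was at 0.505 CPM in the same library and at 1.29 to 2.42 CPM in the others. The 5 markers of hippocampus and cortical hem together, *Lmx1a* among them, summed to 156 CPM in that library, within the 147 to 220 CPM of the others. Without dcKO_Nex-Cre replicate 4 the fitted log2 fold change was -0.20 for *Wnt3a* and 0.05 for *Wnt8b*. Over all fits that each left out 1 library, it ranged from -0.74 to -0.20 for *Wnt3a* and from -0.77 to 0.05 for *Wnt8b*. *Wnt2b*, the third ligand of the hem, was at 1.46 CPM in that library and at 1.498 to 2.57 CPM in the others.

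*Lrp5* and *Lrp6* encode the co-receptors that Frizzled needs for beta-catenin signaling. *Lrp5* (ENSMUSG00000024913, chromosome 19, 3584828 to 3686564, minus strand) was at 19.05, 17.6, 18.4 and 18.7 CPM in the control and at 26.1, 26.3, 23.0 and 18.2 CPM in the mutant. dcKO_Nex-Cre replicates 1 to 3 lay above all 4 controls, and replicate 4 lay among them. The log2 fold change was 0.35 (95% interval 0.09 to 0.60), or 1.27-fold, with an unadjusted p of 0.0126 and an adjusted p of 0.224 from edgeR.

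*Lrp6* (ENSMUSG00000030201, chromosome 6, 134446476 to 134566965, minus strand) was the more abundant of the pair, with 68.5% of their summed RPKM on average. It was at 55.6, 67.1, 59.0 and 56.3 CPM in the control and at 68.1, 68.8, 66.6 and 66.5 CPM in the mutant. All mutant libraries lay above 3 of the controls, and control replicate 2 lay among them. The log2 fold change was 0.18 (95% interval 0.01 to 0.35), or 1.13-fold, with an unadjusted p of 0.0361 and an adjusted p of 0.329 from edgeR.

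*Fzd1* (ENSMUSG00000044674, chromosome 5, 4753839 to 4758035, minus strand), the most abundant Frizzled gene, was at 29.9, 24.7, 30.4 and 27.4 CPM in the control and at 42.3, 40.7, 35.2 and 27.0 CPM in the mutant. As for *Lrp5*, dcKO_Nex-Cre replicates 1 to 3 lay above every control and replicate 4 lay within the control range. The log2 fold change was 0.37 (95% interval 0.08 to 0.67), or 1.29-fold, with an unadjusted p of 0.0174 and an adjusted p of 0.256 from edgeR.

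*Fzd2* (ENSMUSG00000050288, chromosome 11, 102604396 to 102608058, plus strand) was at 13.4, 10.2, 12.8 and 12.7 CPM in the control and at 13.6, 18.5, 15.9 and 12.7 CPM in the mutant. Here 3 mutant libraries were above the highest control, 1 of them by little, and replicate 4 was level with the controls. The log2 fold change was 0.31 (95% interval 0.01 to 0.61), or 1.24-fold, with an unadjusted p of 0.0469 and an adjusted p of 0.358 from edgeR. *Fzd9* (ENSMUSG00000049551, chromosome 5, 135248938 to 135251230, minus strand), the third by level, was at 9.43, 6.57, 10.3 and 9.30 CPM in the control and at 8.58, 7.82, 6.52 and 6.62 CPM in the mutant. Its log2 fold change was -0.27 (95% interval -0.62 to 0.08, adjusted p = 0.473 from edgeR), and control replicate 2 lay within the range of the mutant.

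**Figure D4:**
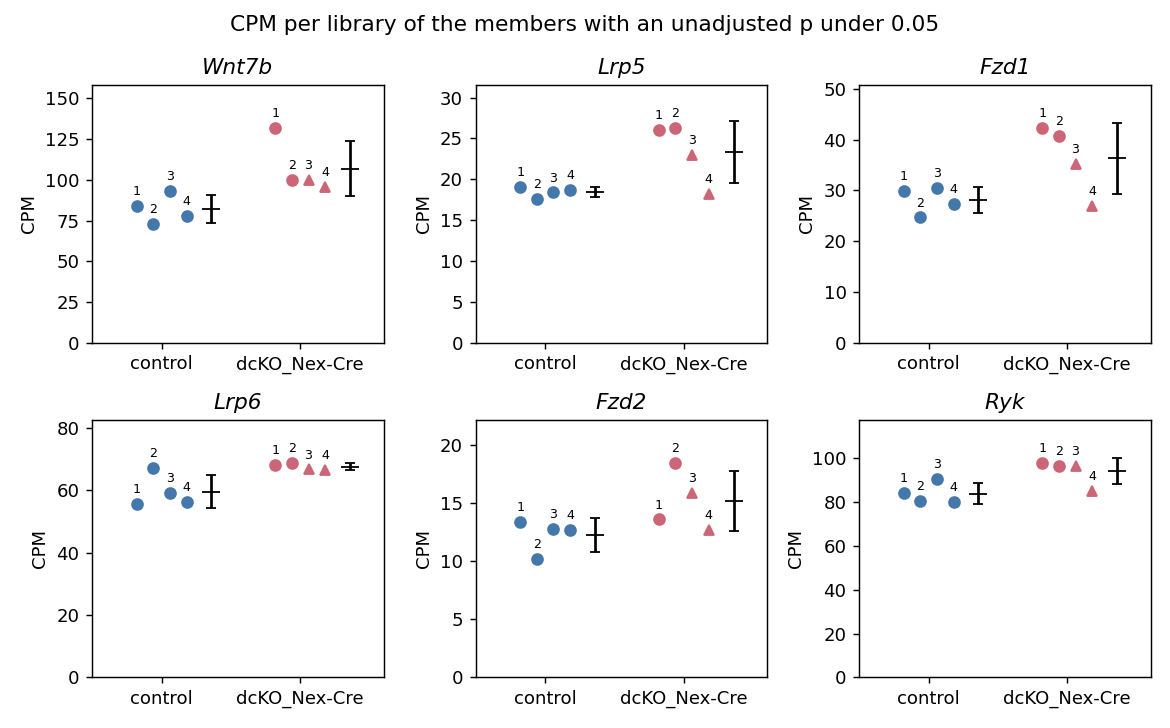
CPM per library of the 6 genes with an unadjusted p under 0.05. Numbers are replicates, circles are lane 2, triangles are lane 8, and the bar at the right of each group is its mean and SD (n = 4). dcKO_Nex-Cre replicate 4 is the lowest mutant library in all panels, and it lies within the control range in 5 of the 6, all but *Wnt7b*.

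Of the remaining Frizzled genes, *Fzd3*, whose product guides axons with the planar cell polarity proteins, was at 33.4 ± 2.55 CPM in the control and 36.1 ± 2.06 CPM in the mutant (SD, n = 4 each), with a log2 fold change of 0.11 and a 95% interval of -0.07 to 0.29. *Fzd4*, the receptor of the vascular ligand norrin, was at 6.09 ± 1.20 and 7.58 ± 0.953 CPM (SD, n = 4 each), with a log2 fold change of 0.32 (95% interval -0.04 to 0.68). *Fzd6*, *Fzd7*, *Fzd8* and *Fzd10* had log2 fold changes between 0.13 and 0.18, and all of their intervals included 0. *Fzd5* had the largest fitted value of the receptors, 0.54, with a wide interval of -0.05 to 1.13. At a mean of 44.9 counts it was also among the least abundant, and 16.4% of the stretches of 50 bases in its transcripts also occur in *Gm38058* on the other strand.

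Of the receptors that need no beta-catenin, *Ryk* (ENSMUSG00000032547, chromosome 9, 102834917 to 102908305, plus strand) made up 95.8% of the summed RPKM of its group on average. It was at 84.1, 80.5, 90.5 and 80.2 CPM in the control and at 98.0, 96.4, 96.4 and 85.1 CPM in the mutant. dcKO_Nex-Cre replicates 1 to 3 lay close together above all controls, and replicate 4 lay within the control range. The log2 fold change was 0.17 (95% interval 0.00 to 0.33), or 1.12-fold, with an unadjusted p of 0.0471 and an adjusted p of 0.359 from edgeR.

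*Ror2* (ENSMUSG00000021464, chromosome 13, 53109312 to 53286124, minus strand), a receptor of *Wnt5a*, was at 3.07, 2.52, 3.38 and 3.61 CPM in the control and at 2.09, 2.72, 2.27 and 3.03 CPM in the mutant. The ranges overlapped, and the log2 fold change was -0.33 (95% interval -0.74 to 0.08, adjusted p = 0.451 from edgeR). *Ror1* (ENSMUSG00000035305, chromosome 4, 100095791 to 100444765, plus strand) was at 1.10, 0.547, 0.876 and 1.54 CPM in the control and at 1.01, 1.42, 0.702 and 0.898 CPM in the mutant. The mutant libraries lay within the range of the controls, and the log2 fold change of -0.02 (95% interval -0.73 to 0.70) changed sign under 8 of the 17 alternatives.

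In each group, 1 library was the lowest for most of these genes. Within its group, dcKO_Nex-Cre replicate 4 was the lowest library for 21 of the 26 tested genes and for 12 of the 15 receptors, beside 37.8% of all genes tested. Control replicate 2 was the lowest of the controls for 15 of the 26 genes and for 11 of the 15 receptors, beside 34.8% of all genes. These are the 2 libraries with the highest mitochondrial share, 6.15% and 6.87%, and the smallest totals of their groups. Of the mutants, dcKO_Nex-Cre replicates 1 and 2, in lane 2, were highest for 12 and 10 of the 26 genes, beside 30.9% and 18.8% of all genes. Replicates 3 and 4, in lane 8, were highest for 2 each, beside 14.1% and 36.2% of all genes. The part of mitochondrial share, depth or lane in these levels was not tested.

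Without dcKO_Nex-Cre replicate 4, *Wnt7b*, *Fzd1* and *Lrp5* passed an adjusted p of 0.05 in edgeR (3 of 26, beside 3.98% of all genes higher), with adjusted p = 0.042, 0.0171 and 0.0154. At an unadjusted p under 0.05 there were then 10 members higher, beside 14.3% of all genes, and 1 lower, *Ror2*, beside 13.9%. Within lane 2, which holds 4 controls and dcKO_Nex-Cre replicates 1 and 2, *Fzd1* and *Lrp5* passed (adjusted p = 0.0336 and 0.0338 from edgeR, beside 0.834% of all genes higher). Leaving out both libraries of high mitochondrial share, an alternative chosen after the data were seen, gave 4 members, *Fzd1*, *Fzd5*, *Lrp5* and *Lrp6*, beside 5.49% of all genes higher. Without the 3 libraries of highest choroid plexus level, also chosen after the data were seen, none passed (beside 0.0477% of all genes higher) and the count at an unadjusted p under 0.05 fell to 1 (*Fzd4*), beside 2.27% of all genes higher. Those 3 libraries were control replicates 1 and 4 and dcKO_Nex-Cre replicate 2, so both groups were smaller in that fit. The fitted change of *Wnt7b* in it was 0.39. Over the 17 alternatives the adjusted p ranged from 0.00928 to 0.949 for *Fzd1* and from 0.00907 to 0.949 for *Lrp5*, and the fitted change of all 6 genes stayed above 0.

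**Figure D5:**
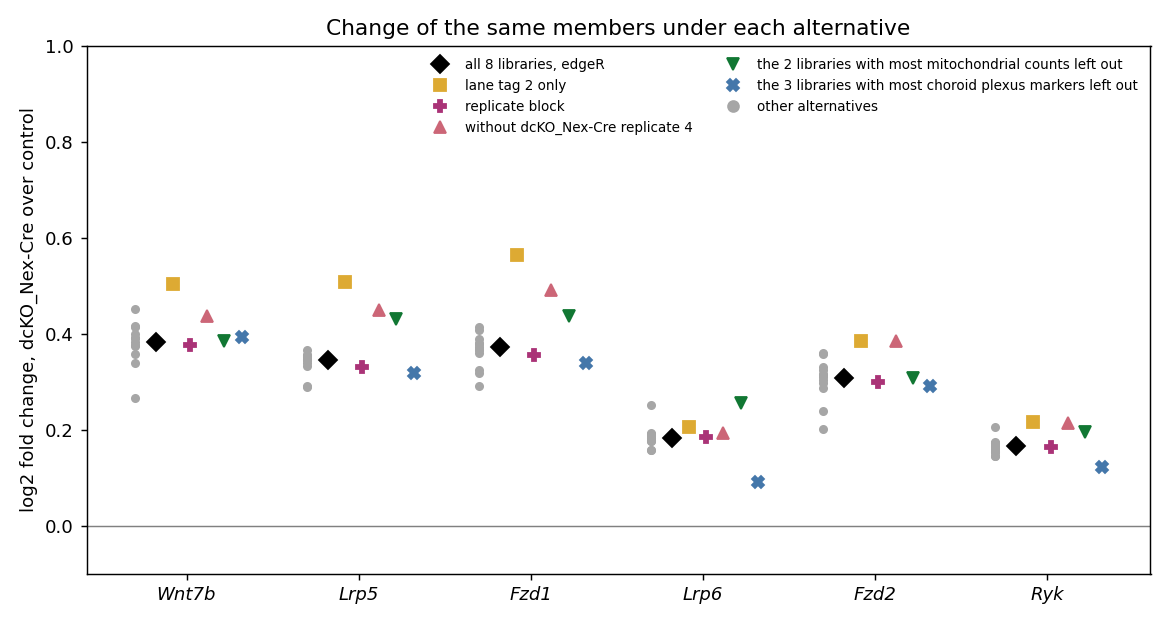
Fitted log2 fold change of the 6 genes with an unadjusted p under 0.05 in the fit of all 8 libraries (black) and under 17 alternatives. Values stay above 0 throughout, and for *Lrp5* and *Fzd1* they are highest within lane 2 (0.51 and 0.56).

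Markers of other cell types were set beside these values, since the tissue holds many cells that express Wnt receptors. All 5 markers of oligodendrocyte precursors had fitted values above 0, 4 of them at an unadjusted p under 0.05 and *Cspg4* at an adjusted p under 0.05. Their summed level was 173 to 252 CPM in the control and 252 to 308 CPM in the mutant, with the lowest value of each group in control replicate 2 and dcKO_Nex-Cre replicate 4. The 6 endothelial markers summed to 98.7 to 149 and 123 to 166 CPM with 0 called, again lowest in those libraries. The 9 markers of radial glia and astrocytes had 0 called at an adjusted p under 0.05, and 5 of them were fitted above 0. At an unadjusted p under 0.05 *Gfap* was higher and *Fabp7* lower. *Fabp7* was at 1427 to 1702 CPM in the control and 900 to 1349 CPM in the mutant (adjusted p = 0.113 from edgeR and 0.00921 from DESeq2). The sums of the 9 markers, 2407 to 2849 and 2002 to 2515 CPM, were dominated by *Fabp7*. Without *Fabp7* they summed to 803 to 1148 and 811 to 1278 CPM, again lowest in control replicate 2 and dcKO_Nex-Cre replicate 4. Of the 6 microglial markers, 4 were fitted above 0 and 2 below, with 2 higher and 1 lower at an unadjusted p under 0.05. Only *C1qb*, which rose, had an adjusted p under 0.05, and the sums of the 6 were 88.0 to 103 and 89.4 to 119 CPM. Of the 7 striatal markers 1 was called (*Ppp1r1b*), and their sum of 465 CPM in dcKO_Nex-Cre replicate 2 was above the 151 to 255 CPM of the other libraries. Intermediate progenitors, interneurons, Cajal-Retzius cells, pericytes, meningeal fibroblasts, thalamus and blood cells had 0 markers called at an adjusted p under 0.05. All 5 Cajal-Retzius markers were fitted below 0 and all 5 blood markers above 0. Meningeal markers summed to 81.4 CPM in dcKO_Nex-Cre replicate 2 and to 12.6 to 39.6 CPM in the other libraries. The part of any of these cells in the levels of the Wnt receptors was not tested.

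For 8 ligands the counts, 0 to 10 per library, did not pass the filter of the edgeR test. DESeq2 and edgeR without the filter included them, and neither gave any of the 8 an unadjusted p under 0.05. *Wnt11* had 47 counts in all 8 libraries together, *Wnt16* 26, *Wnt6* 24, *Wnt9b* 17, *Wnt10a* 16, *Wnt1* 15, *Wnt10b* 3 and *Wnt8a* 2. A library with 0 counts allows a level of up to 0.087 to 0.168 CPM, depending on its depth. No fold is given for these genes. Several lie next to another ligand gene, *Wnt6* 6193 bases from *Wnt10a* on chromosome 1, *Wnt10b* 11706 bases from *Wnt1* on chromosome 15 and *Wnt9b* 24328 bases from *Wnt3* on chromosome 11, while *Wnt3a* and *Wnt9a* are 16175 bases apart on chromosome 11. In the pair of *Wnt9b* and *Wnt3* the neighbours differed widely, with 17 and 835 counts in all. No 50-base stretch was shared between transcripts of any of the 34 genes, so a read of that length that matches one of them exactly matches none of the others.

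The remaining genes of the pathway were listed by function, 101 in all of which 95 were tested. Of these, 3 rose and 0 fell at an adjusted p under 0.05, beside 0.375% and 0.51% of all genes. There were 12 higher and 2 lower at an unadjusted p under 0.05, beside 6.59% and 7.05% of all genes. Their median log2 fold change was 0.03. The 3 were *Rspo2*, *Lrp4* and *Tle1*, which act outside the cell, at its surface and in the nucleus. The list was chosen with earlier results of these data known, and the study proposes *Rspo2* among the altered effectors of WNT signaling in this mutant. The counts of the list are therefore a description and no independent test. *Rspo2* encodes an R-spondin, a secreted protein that keeps Frizzled and LRP receptors at the surface. It was at 23.2, 18.6, 23.2 and 21.01 CPM in the control and at 61.9, 39.9, 59.8 and 58.1 CPM in the mutant, with no overlap and all mutant libraries far above the controls. Its log2 fold change was 1.35 (95% interval 1.05 to 1.66, adjusted p = 0.00202 from edgeR), and it passed under all 17 alternatives.

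*Lrp4*, a relative of the LRP co-receptors that binds Wnt inhibitors, was at 23.6 ± 2.01 CPM in the control and 38.0 ± 7.64 CPM in the mutant (SD, n = 4 each), a log2 fold change of 0.69 (adjusted p = 0.0486 from edgeR). *Tle1*, a co-repressor of TCF/LEF factors, was at 75.6 ± 4.50 and 95.6 ± 2.53 CPM (SD, n = 4 each), a log2 fold change of 0.34 (adjusted p = 0.0479 from edgeR). Leaving out any 1 library other than dcKO_Nex-Cre replicate 4 removed the calls of *Lrp4* and *Tle1*.

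In the other lists 0 genes passed, and the gene of smallest p is given for each. *Wls*, which carries Wnt proteins to the cell surface, was at 30.9 ± 3.44 CPM in the control and 24.7 ± 3.99 CPM in the mutant (SD, n = 4 each, log2 fold change -0.32, adjusted p = 0.288 from edgeR), and 5 of the 6 genes of Wnt lipidation and release had fitted values below 0. Among secreted inhibitors *Dkk3* had a log2 fold change of 0.36 (adjusted p = 0.136), among cytoplasmic transducers *Frat1* 0.19 (adjusted p = 0.321) and among planar cell polarity genes *Mapk10* 0.27 (adjusted p = 0.139), all from edgeR. Of 12 tested target genes of beta-catenin 5 were fitted above 0 and 7 below, with a median of -0.01. The smallest p in that list was that of *Lgr5* (log2 fold change 0.66, adjusted p = 0.277 from edgeR), itself a receptor of R-spondins, at 0.974 ± 0.269 and 1.53 ± 0.260 CPM (SD, n = 4 each). *Axin2*, the most widely used readout of beta-catenin signaling and chosen for that after its values were seen, was at 24.9 CPM in the control and 24.4 CPM in the mutant. Its log2 fold change was -0.03, with a 95% interval of -0.21 to 0.15.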

How the data were processed

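RNA-seq of P1 cortex was analysed for 4 control and 4 dcKO_Nex-Cre samples. For each library the authors deposited a file of raw counts by Ensembl gene, not normalized. The labels name the genome build mm10, a library kit that does not mark strand, and RNA of whole tissue, while the aligner, counter, annotation and strand setting are not given in the sources used here. Files list 48709 genes, of which 48349 were matched by identifier to GENCODE M21 on GRCm38 for names, positions and exon lengths, and 30127 had a count.

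The analysis used edgeR 4.0.16 in R 4.3.3. The filter filterByExpr kept 16287 genes, TMM set the library sizes, and the robust quasi-likelihood test compared the groups (two-sided, no covariate). Benjamini-Hochberg adjustment covered every gene tested, and the threshold was 0.05. CPM is the count scaled to the TMM library size, and RPKM is that value per kilobase of merged exons, which can favour short genes where reads fall in unannotated ends. Intervals are approximate 95% intervals, with a standard error derived from the fitted change and the F statistic of the test. The floor of 3 counts covers counting error only. The biological coefficient of variation was 0.143, and depth ranged from 17958641 to 35191912 counts. Scripts were tested on simulated counts.

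The 17 alternatives were DESeq2 size factors, the Wald test of DESeq2 1.42.0, limma-voom (limma 3.58.1), no filter, at least 10 counts in every library, the replicate number as a block, lane 2 only, each library left out, and 2 added after the data were seen, without the 2 libraries of highest mitochondrial share and without the 3 of highest choroid plexus markers. Lane tags were read from file names and assigned no condition. Fits use all features, and only members and pathway genes are printed. The members and lists were chosen with earlier results of these data known. Values per library are given for members with an unadjusted p under 0.05 or groups that do not overlap and for the 3 of highest RPKM in each role, and from each pathway list at most 2 genes past the threshold, otherwise the one with the smallest p. *Wnt3a* and *Wnt8b* per library, *Lmx1a* and *Axin2* were added after their values were seen. A planned comparison of protein sequences was not made, and 50-base stretches of GENCODE transcripts were compared in its place. Figures were drawn in Python 3.11.15 with matplotlib 3.10.9.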

Additional observations from a re-analysis of the deposited data

Results flagged for a closer look

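Within each group of 4 libraries, the highest or lowest value of a tested member was compared with its distance to the others by Dixon's ratio. Of 52 groups, 4 passed the 95% critical value, where chance gives about 1 in 20, or 2.6. For *Wnt7b*, dcKO_Nex-Cre replicate 1 stood at 132 CPM, above the 95.5 to 100.1 CPM of the other mutants. For *Wnt5a*, control replicate 4 stood at 16.3 CPM, below the 20.1 to 20.6 CPM of the other controls. For *Fzd10*, control replicate 1 had 2.24 CPM and the other controls 1.20 to 1.32 CPM. For *Ryk*, dcKO_Nex-Cre replicate 4 had 85.1 CPM and the other mutants 96.4 to 98.0 CPM.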

How the results depend on the processing

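The number of members with an adjusted p under 0.05 was 0 in the fit of all libraries, 2 within lane 2, 4 without the 2 libraries of highest mitochondrial share and 0 to 3 when each library was left out, the 3 arising without dcKO_Nex-Cre replicate 4. At an unadjusted p under 0.05 the count of higher members went from 6 to 3 with the replicate block (beside 5.57% of all genes), to 1 without the 3 libraries of highest choroid plexus level and to 2 to 10 when each library was left out (beside 4.42% to 14.3%). The count of lower members went from 0 to 2 without the 2 libraries of highest mitochondrial share (beside 13.5% of all genes) and to 0 to 1 when each library was left out (beside 4.95% to 13.9%, 1 without control replicate 2, *Fzd9*, and 1 without dcKO_Nex-Cre replicate 4). The count of higher pathway genes went from 3 (beside 0.375% of all genes) to 5 with DESeq2 (beside 1.17%), 1 with limma-voom (beside 0.307%) and 1 with the replicate block (beside 0.129%). It was 13 without the 2 libraries of highest mitochondrial share (beside 5.49%) and 1 without the 3 of highest choroid plexus level (beside 0.0477%). When each library was left out it was 1 to 9 (beside 0.0542% to 3.98%), the 9 arising without dcKO_Nex-Cre replicate 4. Lower pathway genes went from 0 to 2 without the 2 libraries of highest mitochondrial share (beside 5.5%) and to 0 to 2 when each library was left out (beside 0.0542% to 3.74%). *Ror1*, at -0.02, was above 0 within lane 2 (0.24), with limma-voom (0.024), with the replicate block (0.0042), without the 3 libraries of highest choroid plexus level (0.28) and without 4 of the libraries, each left out in turn, and ranged from -0.22 to 0.25 over all 8. With the length of the longest transcript in place of merged exons, *Wnt7b* took 59.1% of the ligand RPKM and *Ryk* 97.0% of its group. Of 187 values of named members under the alternatives, 171 kept their direction and side of the threshold. The causes of these changes were not tested.

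The replicate numbers did not pair the samples, since deviations of same-numbered libraries correlated at 0.13, 0.018, 0.13 and -0.14 and 0 libraries correlated best with their own number. The comparison of protein sequences was not run. Lane and genotype cannot be told apart in lane 8, which holds no control. Of the 26 intervals, 22 lie within a 2-fold change, and 4 (*Wnt2*, *Wnt3a*, *Wnt8b*, *Fzd5*) do not exclude one.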
